A study of Mus musculus with 6 samples.

Results

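The 6 Iroquois homeobox genes of the mouse, Irx1 to Irx6, were followed in branchial arch 1 of embryos at embryonic day 11.5. Members were the probe sets of the array whose single gene symbol in the platform annotation was an Irx gene. This gave 6 probe sets, 1 for each gene, among 45101 probe sets and 18194 genes. The 3 embryos labelled control were Ezh2lox/lox, homozygous for a conditional (lox) allele of Ezh2, which encodes the methyltransferase of Polycomb repressive complex 2 (PRC2). The 3 embryos labelled mutant were Wnt1Cre Ezh2lox/lox, with the same lox alleles and a Wnt1-Cre transgene from a cross of carriers with Ezh2lox/lox mice. Wnt1-Cre acts in the neural crest lineage and the dorsal neural tube, so that the ectoderm, muscle core, vessels and blood of the arch are outside the lineage it targets. Each array held the RNA of 1 arch from 1 embryo. The design asks what loss of Ezh2 in crest cells does to expression in the arch.

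Irx proteins are transcription factors of the TALE superclass, whose homeodomain carries an insertion of extra residues in a loop. The mouse genes lie in a pair of clusters that arose by duplication, Irx1-Irx2-Irx4 and Irx3-Irx5-Irx6, so that Irx1 pairs with Irx3, Irx2 with Irx5 and Irx4 with Irx6. They divide embryonic territories into domains, in the neural plate, heart, limb and face among other places, and the clusters are known targets of PRC2, which keeps them silent in many cells.

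PRC2 is known to act at promoters rich in CG dinucleotides, and the promoters of 3 of the 6 members were at hand in RefSeq's table for GRCm38.p6: those of Irx2 and Irx3, which were lower in the labelled mutants, and that of Irx4, which did not pass. Irx1, Irx5 and Irx6 had no entry. The 250 bases before 1 annotated start of each are given 5′ to 3′ on the gene's strand, with every CG dinucleotide in capitals.
Irx2, chr13:72628570-72628819, plus strand: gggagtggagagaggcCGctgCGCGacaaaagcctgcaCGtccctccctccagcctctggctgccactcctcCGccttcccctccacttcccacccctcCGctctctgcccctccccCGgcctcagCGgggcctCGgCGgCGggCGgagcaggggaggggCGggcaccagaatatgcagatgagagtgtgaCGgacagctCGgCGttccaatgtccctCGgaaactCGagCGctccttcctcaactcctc
Irx3, chr8:91801655-91801904, minus strand: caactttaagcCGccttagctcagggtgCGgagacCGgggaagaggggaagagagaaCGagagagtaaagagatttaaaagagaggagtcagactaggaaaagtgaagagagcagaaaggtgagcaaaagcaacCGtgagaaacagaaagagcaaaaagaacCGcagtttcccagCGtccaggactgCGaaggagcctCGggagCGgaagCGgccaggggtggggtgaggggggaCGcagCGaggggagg
Irx4, chr13:73260247-73260496, plus strand: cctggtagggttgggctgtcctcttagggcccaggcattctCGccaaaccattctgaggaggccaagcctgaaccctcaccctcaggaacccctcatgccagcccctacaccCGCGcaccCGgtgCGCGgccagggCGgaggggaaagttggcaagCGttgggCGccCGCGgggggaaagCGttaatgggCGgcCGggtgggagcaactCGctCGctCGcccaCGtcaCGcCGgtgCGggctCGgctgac

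The Irx4 window held 22 CG dinucleotides, the Irx2 window 19 and the Irx3 window 13, against a median of 6 over the 32851 windows of the same length in the table, of which 92.1% held at least 1. CG reads the same on both strands. The Irx4 window held more than 85.2% of all windows did, Irx2 more than 80.3% and Irx3 more than 68.5%. G and C together made up 68.8% of the Irx4 window, 68.4% of the Irx2 window and 56.0% of the Irx3 window. All 3 windows thus held more than the median window, and the member that did not pass held the most. The letters ACANNTGT, a site that Iroquois proteins are known to bind and that also reads the same on both strands, were in none of the 3 windows and in 6.31% of all windows.

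Some facts of the series bear on every value. The values are log2 signals that the authors had brought to 1 distribution on all arrays, with a 25th percentile of 4.33, a median of 5.81 and a 75th percentile of 8.17, and their precision is limited by the number of arrays. All 10 markers fixed for arch 1 mesenchyme, among them Pitx1, Barx1 and Lhx8, lay above the 25th percentile on every array. Xist, expressed from the inactive X of females, read 5.62 ± 0.15 in the labelled controls against 13.03 ± 0.10 in the labelled mutants (SD, n = 3), and the Y-linked Kdm5d read 9.18 ± 0.06 and 2.95 ± 0.13. Embryo sex and genotype label therefore cannot be told apart in any comparison here. The probe set of Ezh2 read 11.63 ± 0.15 and 11.66 ± 0.01, and whether it lies within the deleted part of the gene is not known here, so that it checks neither label. Hoxa9, a gene that PRC2 is known to silence in the head, was high in the labelled controls (11.28 ± 0.37) and near the low end in the labelled mutants (4.21 ± 0.36). That goes against the labels as a deletion of Ezh2 is usually read, so each direction below holds for the labels only, and control or mutant arch (or array) 1, 2 or 3 is the one so labelled and numbered. In RNA from a whole arch, fewer cells of a type and less RNA per cell cannot be told apart.

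Irx1, Irx2, Irx3 and Irx5 fell in the labelled mutants, and Irx4 and Irx6 did not pass. The members that fell were the first and the middle gene of each cluster, and the members that did not pass were the paralogous pair at the other end. Of the 6 genes 4 fell and 0 rose with limma at a Benjamini-Hochberg adjusted p of 0.05, where 4.3% of all genes fell, 1.23% rose and 5.53% passed in either direction. The median change of the 6 was -0.81 on the log2 scale, against 0.02 over all genes. The arrays of the groups did not overlap for the same 4 genes, where 24.9% of all genes did not overlap in either direction and 11.9% did not overlap and were lower. Changes are labelled mutant minus labelled control, each with its standard error from limma.

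**Figure D1:**
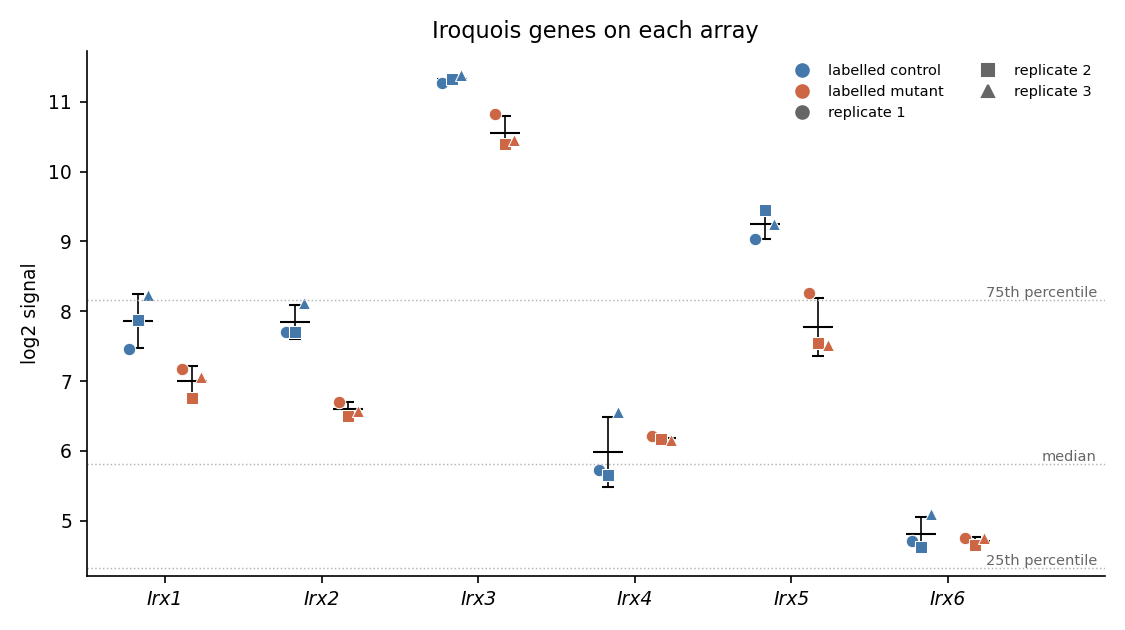
Log2 signal (vertical axis) of the 6 Iroquois genes on each of the 6 arrays; points are arrays, shaped by replicate number, bars are the group mean and SD (n = 3), and dotted lines are the 25th percentile, median and 75th percentile of an array. The groups are apart for Irx1, Irx2, Irx3 and Irx5 and overlap for Irx4 and Irx6.

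Irx5 had the largest change of the family. IRX5 is the member whose loss in humans is known to disturb the face and the heart. It read 9.04, 9.45 and 9.25 in labelled controls 1, 2 and 3, and 8.26, 7.54 and 7.52 in labelled mutants 1, 2 and 3. Mutant arch 1 was the highest of its group, and still 0.78 below the lowest labelled-control arch. Irx5 fell by 1.47 ± 0.20 (SE) on the log2 scale (limma, Benjamini-Hochberg adjusted p = 0.0041), which left 36.0% of the labelled-control signal (95% interval 26.4% to 49.2%). By the size of the fall it ranked 103 among the 18194 genes. Leaving out each array in turn kept the call, with changes from -1.71 to -1.34 and limma's Benjamini-Hochberg adjusted p at 0.0272 or less.

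Irx2, the cluster counterpart of Irx5, had the smallest p-value of the family. It read 7.70, 7.71 and 8.12 in the labelled controls and 6.71, 6.51 and 6.57 in the labelled mutants. The labelled mutants lay close together (SD 0.10), and the gap between the groups was 1.00, the widest of the 6 genes. Irx2 fell by 1.25 ± 0.12 (limma, Benjamini-Hochberg adjusted p = 8.93e-04), to 42.0% of the labelled-control signal (95% interval 34.6% to 51.1%). By moderated t its fall ranked 90 among all genes. It passed under all 13 alternatives run, with adjusted p from 4.31e-04 to 0.0377.

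Irx3 and Irx1, the first genes of their clusters, fell by less. Irx3, which acts in patterning of the neural tube and limb, was bright in both groups. It read 11.27, 11.32 and 11.39 in the labelled controls and 10.83, 10.39 and 10.46 in the labelled mutants. The labelled controls were close together, and mutant arch 1 again lay nearest to them, 0.44 below the lowest. Irx3 fell by 0.77 ± 0.12 (limma, Benjamini-Hochberg adjusted p = 0.0077), to 58.8% of the labelled-control signal (95% interval 48.8% to 70.8%), and passed with each array left out (adjusted p at most 0.0441).

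Of the 4 genes that fell, Irx1 had the widest spread among the labelled controls. It read 7.47, 7.87 and 8.23 in them and 7.17, 6.75 and 7.06 in the labelled mutants. Control arch 1 and mutant arch 1 were only 0.29 apart, although the groups did not overlap. Irx1 fell by 0.86 ± 0.19 (limma, Benjamini-Hochberg adjusted p = 0.0339), to 55.0% of the labelled-control signal (95% interval 40.9% to 74.0%). Its call was lost without control array 2 (limma, Benjamini-Hochberg adjusted p = 0.122), control array 3 (0.0594), mutant array 2 (0.131) or mutant array 3 (0.104). It was also lost when all 45101 probe sets were fitted in place of 1 per gene (limma, Benjamini-Hochberg adjusted p = 0.0786). In that fit 3 of the 6 Irx probe sets passed, all lower, where 2.14% of all probe sets passed and 1.77% were lower. With a floor on low signals (each array's 20th percentile) Irx1, Irx3 and Irx5 missed the threshold (limma, Benjamini-Hochberg adjusted p = 0.158, 0.0723 and 0.0716), although their own values lay above the floor. Over all probe sets, only that of Irx2 passed without control array 2, mutant array 2 or mutant array 3.

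For the paralogous pair Irx4 and Irx6 the groups overlapped. Irx4, a regulator of the heart ventricle, read 5.73, 5.65 and 6.56 in the labelled controls and 6.22, 6.18 and 6.15 in the labelled mutants. Control arch 3 was above every labelled-mutant arch, and the other labelled controls were below them. The change was 0.20 ± 0.21 (limma, Benjamini-Hochberg adjusted p = 0.680; 95% interval -0.28 to 0.68). Without control array 3, Irx4 passed the threshold and rose by 0.49 (limma, Benjamini-Hochberg adjusted p = 0.0154).

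Irx6, known from bipolar cells of the retina, read 4.70, 4.62 and 5.09 in the labelled controls and 4.75, 4.65 and 4.75 in the labelled mutants. All 6 values lay between the 25th percentile and the median of the array, where background can make up much of a signal. The change was -0.09 ± 0.12 (limma, Benjamini-Hochberg adjusted p = 0.757; 95% interval -0.37 to 0.19), and it was 0.052 without control array 3. The intervals of Irx4 and Irx6 share no value with those of the other 4 genes, each given for its own gene; the difference between members was not tested.

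**Figure D2:**
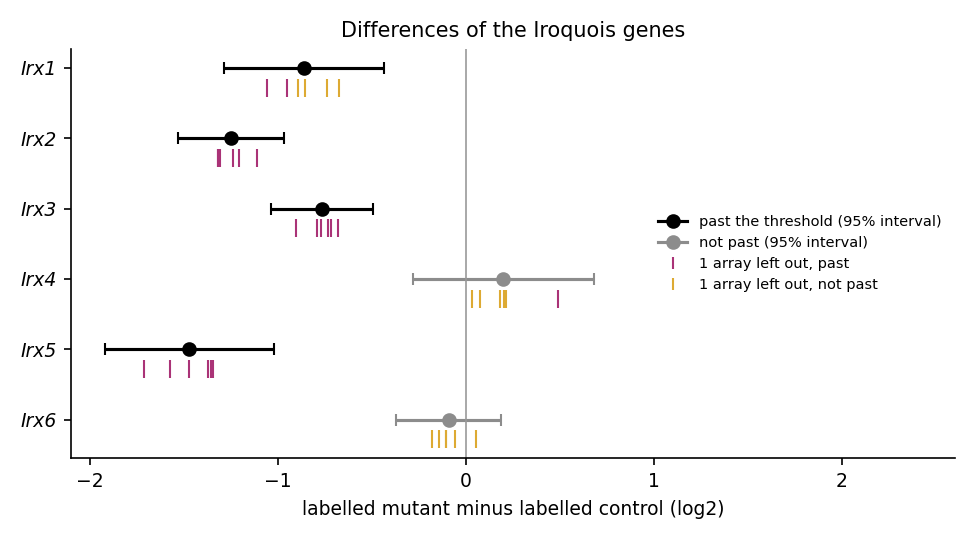
Change of each Iroquois gene (horizontal axis, labelled mutant minus labelled control, log2) with limma's 95% interval; black points passed an adjusted p of 0.05 and grey ones did not, and ticks below each point are the values with 1 array left out. Irx2, Irx3 and Irx5 passed with every array left out, and the intervals of Irx4 and Irx6 include 0.

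The arrays kept a similar order within groups for several members. Mutant arch 1 was the highest labelled-mutant arch for Irx1, Irx2, Irx3, Irx4 and Irx5. Control arch 3 was the highest labelled-control arch for every member except Irx5. Profiles over the 6 arrays, each centred on its own mean, were closest for Irx4 and Irx6 (root mean square difference 0.21) and for Irx1 and Irx3 (0.21), and farthest for Irx4 and Irx5 (0.92). The third paralogous pair, Irx2 and Irx5, was 0.28 apart, farther than Irx1 and Irx2 (0.24), neighbours in 1 cluster, and about as far as Irx2 and Irx3 (0.28). With 6 arrays in 2 groups this distance includes the difference between groups.

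**Figure D3:**
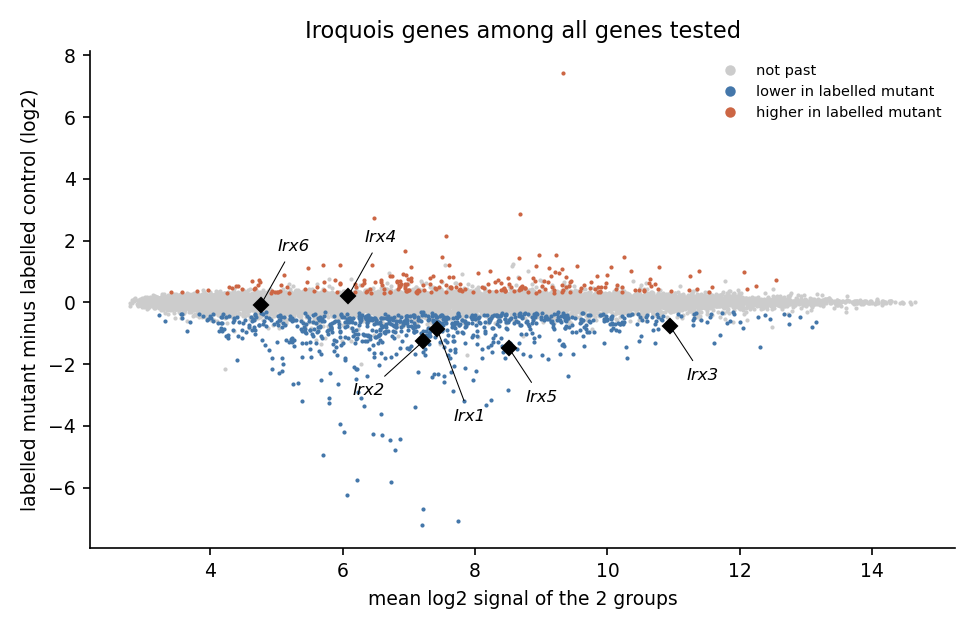
Change of each of the 18194 genes (vertical axis, labelled mutant minus labelled control, log2) against its mean log2 signal; colours mark genes past an adjusted p of 0.05 and diamonds the 6 Iroquois genes. Irx1, Irx2, Irx3 and Irx5 lie among the genes that fell, and Irx4 and Irx6 in the body of the genes that did not pass.

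Genes beside the clusters were also compared. Neighbours were the 5 protein-coding genes on each side and every gene inside a cluster, in the order of RefSeq's gene table for GRCm38.p6. Of 40 such genes 17 were measured, and of these 2 fell, 0 rose and 15 were short of the threshold, with a median change of -0.04, where 4.3% of all genes fell. Crnde, a noncoding RNA gene directly beside Irx5, was the only measured gene inside a cluster. It read 7.59, 7.93 and 8.09 in the labelled controls and 7.94, 7.14 and 7.28 in the labelled mutants. Its groups overlapped, because mutant arch 1 lay among the labelled controls, and its change was -0.41 ± 0.21 (limma, Benjamini-Hochberg adjusted p = 0.335). Fto, whose introns are known to hold enhancers of Irx3 and Irx5, had a change of -0.09 ± 0.07 (adjusted p = 0.583 with limma).

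The neighbours that fell were Ube2ql1 and Rbl2. Ube2ql1, a ubiquitin-conjugating enzyme gene, is the farthest of the 5 coding genes taken on its side of the Irx1 cluster. It fell by 0.97 ± 0.20 (limma, Benjamini-Hochberg adjusted p = 0.0270). Rbl2, a retinoblastoma relative, is separated from the Irx3 cluster by Aktip, Rpgrip1l and Fto. It fell by 0.63 ± 0.15 (limma, Benjamini-Hochberg adjusted p = 0.0449). Both calls were lost without control array 2, mutant array 2 or mutant array 3, and that of Rbl2 also without mutant array 1 (limma, Benjamini-Hochberg adjusted p = 0.0952). A further probe set of Ube2ql1 had a change of 0.28, opposite in sign, and one of Rbl2 a change of -0.19. The noradrenaline transporter gene Slc6a2 had the next largest moderated t among the neighbours, at 0.33 ± 0.12, and did not pass (limma, Benjamini-Hochberg adjusted p = 0.179). Adamts16, the coding gene nearest to the Irx1 cluster on the side of Ube2ql1, had a change of 0.11 ± 0.09 (limma, Benjamini-Hochberg adjusted p = 0.572).

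**Figure D4:**
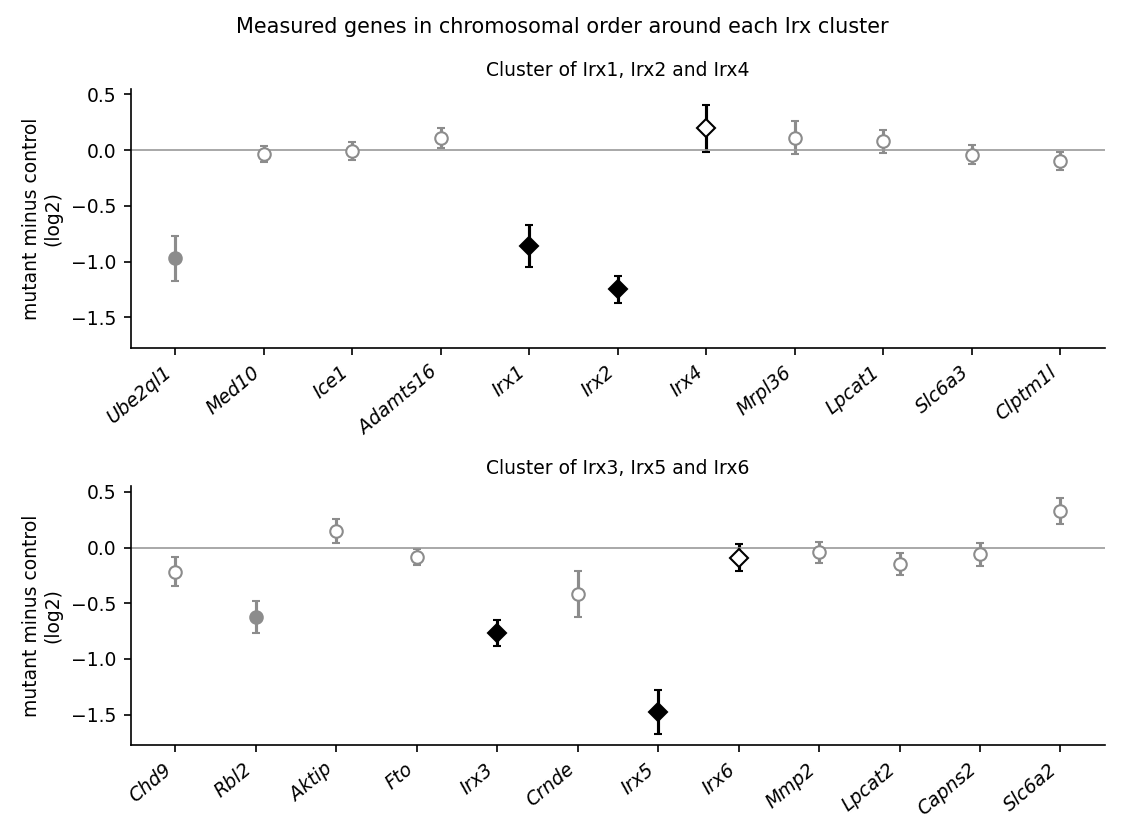
Change (vertical axis, log2, bars are standard errors) of the measured genes in chromosomal order, evenly spaced, around the Irx1-Irx2-Irx4 and the Irx3-Irx5-Irx6 cluster; diamonds are Irx genes and filled symbols passed an adjusted p of 0.05. In each cluster the first and the middle Irx gene lie below most of their neighbours, and the third lies close to 0.

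Of the 11 other TALE homeobox genes measured 1 fell, 1 rose and 9 were short of the threshold, with a median change of -0.01, where 4.3% of all genes fell and 1.23% rose. Meis1, a partner of Hox proteins, fell by 0.95 ± 0.12 (limma, Benjamini-Hochberg adjusted p = 0.0033), and Pknox2 rose by 0.71 ± 0.12 (0.0102). Tgif2, a repressor in TGF-beta signalling, had a change of 0.25 that did not pass. Mkx (Mohawk), the nearest relative of the Irx genes, had a change of -0.11 ± 0.15 (limma, Benjamini-Hochberg adjusted p = 0.750), with overlapping groups. Pknox2 lost its call without mutant array 2 (limma, Benjamini-Hochberg adjusted p = 0.0503) or 3 (0.0505), and the smallest changes among their further probe sets were -0.04 for Meis1 and 0.22 for Pknox2.

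Among genes tied to Irx factors by genetic work, 4 of 16 fell, 0 rose and 12 did not pass, with a median of -0.08, where 4.3% of all genes fell and 5.53% passed in either direction. Tbx5, a T-box gene of heart and forelimb, fell by 1.20 ± 0.11 (limma, Benjamini-Hochberg adjusted p = 5.75e-04). Kcnd2, a potassium channel gene that Irx5 is known to repress in the heart, fell by 0.96 ± 0.14 (0.0071). Both kept their calls with each array left out, although a further probe set of each had a change near 0, -0.04 for Tbx5 and -0.06 for Kcnd2. Kcnd2 read 3.96, 4.09 and 4.15 in the labelled mutants, below the 25th percentile of 4.33, where background can make up much of a signal. Fezf2 and Cxcr4 fell by 0.58 and 0.49, and Fezf2 kept its call only without mutant array 1 and Cxcr4 only without control array 1 (adjusted p up to 0.0784 and 0.166 with limma). The count was 2 without control array 2, mutant array 2 or mutant array 3.

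The partners of Irx5 in the face did not pass. Gata3 had a change of 0.36 ± 0.16 and Trps1 one of 0.27 ± 0.09 (limma, Benjamini-Hochberg adjusted p = 0.287 and 0.161), and Cxcl12, a chemokine gene that the IRX5 complex is known to regulate, one of -0.48 ± 0.19 (0.215). Gli3, which acts with Irx3 and Irx5 in limb buds, read 10.44 ± 0.06 in the labelled controls against 10.62 ± 0.10 (SD, n = 3) in the labelled mutants and did not pass (limma, Benjamini-Hochberg adjusted p = 0.289).

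Of the genes of signals known to place Irx domains, Aldh1a2, whose product makes retinoic acid, had the largest change. It read 8.96, 9.14 and 9.21 in the labelled controls and 7.88, 7.63 and 7.60 in the labelled mutants. It fell by 1.40 ± 0.10 (limma, Benjamini-Hochberg adjusted p = 1.81e-04), and passed with each array left out. Gli1, a readout of Hedgehog signalling, fell by 0.43 ± 0.09 (limma, Benjamini-Hochberg adjusted p = 0.0308), and Spry1, a feedback inhibitor of FGF signalling, rose by 0.50 ± 0.10 (0.0266). Ptch1, among the genes tied to Irx factors, had a change of 0.05 and Spry2 one of -0.04 (limma, Benjamini-Hochberg adjusted p = 0.898 and 0.867). Fgf8 had a change of 0.96 ± 0.23 that did not pass (adjusted p = 0.0546 with limma), with groups that did not overlap. Shh itself had a change of -0.07, and Rarb, a retinoic acid target, one of -0.11. The 15 measured split into 2 that fell, 1 that rose and 12 short of the threshold, with a median of -0.11, where 4.3% of all genes fell and 1.23% rose. Gli1 lost its call without control array 3 or any mutant array and Spry1 without control array 1 or 2 or mutant array 1 or 2, and 1 call was left without mutant array 1 or mutant array 2.

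**Figure D5:**
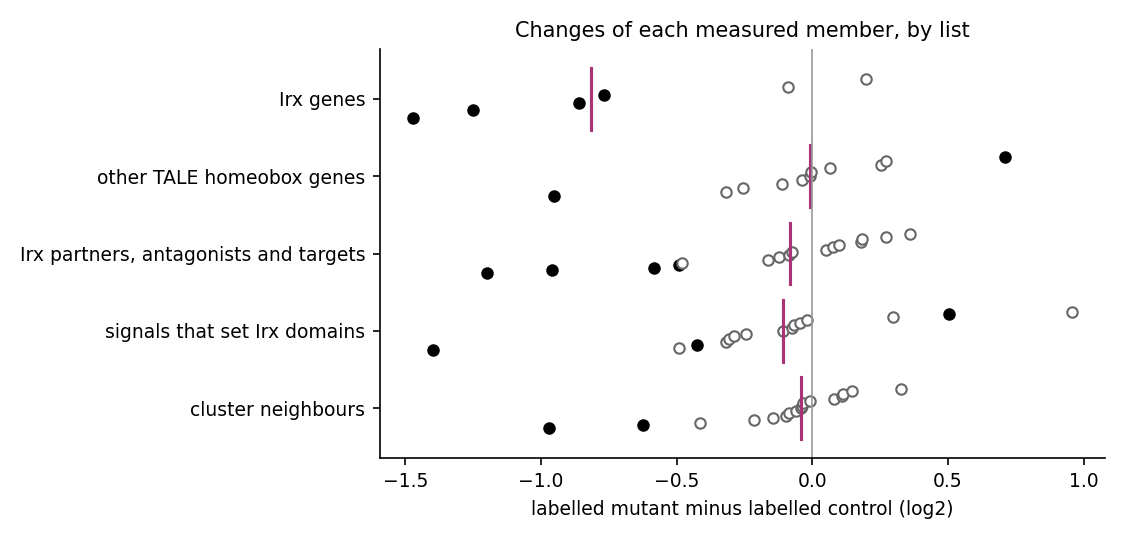
Change (horizontal axis, labelled mutant minus labelled control, log2) of every measured member of the Irx family and of 4 lists; filled points passed an adjusted p of 0.05 and vertical bars are medians. The median of the Irx genes is -0.81 and those of the lists lie between -0.11 and -0.01.

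The genes most like Irx5 over the 6 arrays, by the root mean square difference of centred profiles, were Bmp2, a growth factor gene (0.093), Efemp1, a matrix gene (0.093), and Nfia, a transcription factor gene (0.100). For Irx2 they were Fbxo2 (0.079), Tmem100 (0.082) and She (0.096), and for Irx1 the macrophage receptor gene Mrc1 (0.068), the erythroid gene Hemgn (0.071) and the chromatin remodeller gene Smarca2 (0.083). These genes were picked from all 18194 over only 6 arrays, and the distance includes the difference between groups. The changes of the 6 probe sets of Nfia ran from -1.62 to -0.05. Irx3, with a range of 1.00, and Irx4 and Irx6 did not exceed the range of 1 set for this comparison. Mrc1 and Hemgn, which follow Irx1 most closely, did not pass (limma, Benjamini-Hochberg adjusted p = 0.0511 and 0.0725), but did without control array 1 (0.0151 and 0.0218).

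Markers of other cell types that an arch dissection can hold also moved with the label, and their part in the Irx falls was not tested. Over all genes 4.3% fell and 1.23% rose, and for 24.9% of single genes the groups did not overlap. Of 8 neuron markers measured 5 fell (Isl1, Nefl, Nefm, Stmn2 and Tubb3) and 0 rose. The summed signal of the 8 was 11.19 to 11.50 on the log2 scale in the labelled controls and 9.96 to 10.26 in the labelled mutants. Elavl3, Elavl4 and Pou4f1 had changes of -0.04, -0.11 and 0.03 that did not pass. Isl1 was the brightest of the 8, and a further probe set of it had a change of -0.10. Of 10 markers of trunk and somite mesoderm 4 fell (Meox1, Pax1, Tbx15 and Tbx18) and 0 rose, with summed signals of 11.32 to 11.58 and 9.996 to 10.54. Meox2, Pax9, Tcf15 and Pax3 had changes of -1.34, -0.68, -0.23 and -0.13 that did not pass. Nkx3-2 and Uncx had changes of 0.15 and 0.06 that did not pass, and Uncx lay below the 25th percentile on all arrays. Of 9 neural tube and brain markers 2 fell, Lhx2 and Sox2, with summed signals of 9.81 to 10.52 and 9.52 to 9.60. Sox2 was the brightest of them, and En1, Nkx2-2 and Olig2 lay below the 25th percentile on all arrays. Pax6, Sox1, Sox3 and Olig2 had changes of 0.16, 0.14, 0.11 and 0.08 that did not pass. Fabp7, En1 and Nkx2-2 had changes of -0.72, -0.49 and -0.05 that did not pass either. Of 6 muscle markers 3 fell (Actc1, Myod1 and Myog), with summed signals of 10.62 to 11.23 and 9.17 to 10.35.

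The summed signals of epithelial and endothelial markers overlapped between the labels. For the counts that follow, 4.3% of all genes fell and 1.23% rose, and for 24.9% of single genes the groups did not overlap. Of 10 epithelial markers 1 rose, Krt8, and 0 fell, with summed signals of 12.18 to 12.83 and 12.41 to 12.48. Krt15, Krt5, Krt14 and Epcam had changes of -1.12, -0.53, -0.19 and -0.13 that did not pass. Krt18, Cdh1, Grhl2, Trp63 and Esrp1 had changes of 0.32, 0.16, 0.13, 0.11 and 0.04 that did not pass either. Of 6 endothelial markers 0 passed with limma (0 also at an unadjusted p of 0.05), with 10.52 to 10.91 and 10.67 to 10.78. Of the arch 1 mesenchyme markers 5 of 10 rose (Dlx2, Dlx5, Hand2, Lhx8 and Msx1) and 0 fell, with summed signals of 13.96 to 14.21 and 14.31 to 14.46. Twist1, Barx1 and Pitx1 had changes of -0.20, -0.08 and -0.07, and Prrx1 and Prrx2 of 0.20 and 0.16, none past the threshold. Of 4 erythroid, 5 macrophage and 5 cardiac markers 1 fell in each list (Slc4a1, Ptprc and Tnnt2) and 0 rose, and the summed signals did not overlap, at 15.21 to 15.43 and 15.11 to 15.20, 9.77 to 10.11 and 9.37 to 9.73, and 7.55 to 7.62 and 7.33 to 7.46. A further probe set of each of these 3 genes had a change of opposite sign, 0.11 for Slc4a1, 0.12 for Ptprc and 0.15 for Tnnt2. The erythroid ranges nearly touched, at 15.211 for the lowest labelled control and 15.201 for the highest labelled mutant. In the cardiac list Myl7 and Nppa had changes of 0.16 and 0.03, and Nkx2-5 and Gata4 of -0.30 and -0.075, none past the threshold. Tnnt2 averaged 4.22 in the labelled mutants, below the 25th percentile of 4.33, and Nppa lay below it on all arrays. Of the 23 markers that passed, Dlx2, Dlx5, Msx1, Lhx2, Isl1, Nefl, Nefm, Pax1, Tbx15 and Tbx18 kept their calls with each array left out, and the other 13 lost theirs without at least 1 array.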

How the data were processed

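Biotin-labelled total RNA was hybridised to 1-colour arrays, per the labels. The authors deposited 1 log2 value per probe set and array; the log2 scale was inferred from the values (2.63 to 14.68), and the normalization software is not given in the sources used here. Detection calls were not used here. By the platform annotation 34958 probe sets had 1 symbol, 932 several and 9211 none. Each gene was represented by its brightest single-symbol probe set over 6 arrays. Groups were compared with limma 3.58.1 (lmFit, eBayes, R 4.3.3) over 18194 genes, two-sided, with Benjamini-Hochberg adjustment and a threshold of 0.05; intervals are 95% moderated ones. Each arch came from its own embryo, and the tests measure the spread between embryos. No array repeated another. The procedure was tested on simulated data.

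Named are the Irx genes, checks, and the 3 members of each list with the largest absolute moderated t. Also named are the 3 closest profiles of each Irx gene with a range above 1. Other list members, and Hoxa9, which was not a planned check, were named after their values were seen. Members, lists and tests were chosen with earlier results of these data known. The gene table and promoters are RefSeq's for GRCm38.p6; 3 of 6 members matched a promoter. Alternatives are given in the closing section.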

Additional observations from a re-analysis of the deposited data

How the results depend on the processing

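The number of genes past the threshold was 1007, and 657 with a replicate block, 329 with a floor on low signals (each array's 20th percentile), and 435 to 1021 with 1 array left out. Of the 6 Irx genes 4 passed, 1 with floored signals; with 1 array left out 3 to 4 Irx genes and 1 to 4 Irx probe sets passed (3 with all arrays). With floored signals Irx1 (-0.86, limma, Benjamini-Hochberg adjusted p = 0.158), Irx3 (-0.77, 0.0723) and Irx5 (-1.47, 0.0716) missed the threshold, although 0 of their values lay under the floor of 4.08: limma's prior degrees of freedom went from 4.51 to 0.648. Irx1 (-0.86) also missed it with the replicate block (0.0528). With 1 array left out the changes ran from -1.06 to -0.67 for Irx1, 0.034 to 0.49 for Irx4 and -0.18 to 0.052 for Irx6, where 0.052 (without labelled-control array 3) has the opposite sign. Irx2 kept its direction and call under all 13 alternatives.

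The same-numbered arrays deviated from their group means with correlations of -0.21, -0.12 and -0.07, so the numbers are not treated as pairs. Counts of list members past the threshold, in the order TALE genes, genes tied to Irx, signals and neighbours, were 2, 4, 3 and 2. With the block genes tied to Irx gave 2, signals 1 and neighbours 1. With floored signals the 4 lists gave 0, 1, 1 and 0, with the dim filter genes tied to Irx gave 1 (of 7 left to test), and with the mean of probe sets neighbours gave 0. With 1 array left out they gave 1 to 2, 2 to 3, 1 to 4 and 0 to 2. Of 164 results set against an alternative, 125 kept direction and side of the threshold, or a count within 1.5 times. Signals near the low end, as for Irx6, limit what a small change can show.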
